A study of Mus musculus with 8 samples.

Results

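The Id proteins, the E proteins and the NeuroD factors are basic helix-loop-helix (bHLH) regulators and their antagonists, and their transcripts were followed here in mouse hypothalamus after 2 hours of low oxygen. The group holds 9 genes, out of 55487 in the count table: the inhibitors Id1, Id2, Id3 and Id4, the E proteins Tcf3, Tcf4 and Tcf12, and the neuronal factors Neurod1 and Neurod2. They were chosen by symbol as members of these 3 families, at a time when the decreases of Id3 and Neurod1 in these data were already known. The hypoxia against normoxia values of the members are therefore a description, and the p-values beside them, which come from the fit over all genes, are not independent support. The 8 libraries came from hypothalami of C57BL/6J mice. Mice of the hypoxia group (4 libraries) spent 2 hours in a chamber at 7% oxygen with nitrogen as the balance, and those of the normoxia group (4 libraries) stayed at 21% oxygen for the same time. The housing protocol is the same for both groups, no genetic change or other treatment is labelled, and no age is stated.

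bHLH activators bind DNA as pairs, in which an E protein present in nearly all cells joins a partner made only in certain lineages, such as a NeuroD factor. Both proteins of the pair touch an E-box, a short palindromic DNA site, through their basic regions. Id proteins carry the helix-loop-helix but no basic region, so they capture E proteins in pairs that cannot bind DNA. Id genes are well-known targets of bone morphogenetic protein (BMP) signalling through SMAD factors. In the adult brain Id transcripts are known from astrocytes, endothelial cells and stem cell niches, while Neurod1 and Neurod2 are best known from excitatory neurons of the cortex, hippocampus and cerebellum.

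The family resemblance lies in the helix-loop-helix, and its coding sequence is shown as the stretch in which the 4 inhibitors were most alike. A window of 123 coding bases was placed where the 4 coding sequences were most alike without gaps. Of its bases, 72 (58.5%) were the same in all 4 genes, and these are in capitals. The lines give the sense strand from the GENCODE M21 transcripts of GRCm38, at chr12:25095774-25095896 (minus strand) for Id2, chr4:136144008-136144130 (plus strand) for Id3 and chr13:48261699-48261821 (plus strand) for Id4, each within a coding exon.
Id2: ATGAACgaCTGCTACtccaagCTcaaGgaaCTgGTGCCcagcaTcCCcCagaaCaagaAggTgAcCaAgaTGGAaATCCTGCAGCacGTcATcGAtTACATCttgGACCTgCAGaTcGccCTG
Id3: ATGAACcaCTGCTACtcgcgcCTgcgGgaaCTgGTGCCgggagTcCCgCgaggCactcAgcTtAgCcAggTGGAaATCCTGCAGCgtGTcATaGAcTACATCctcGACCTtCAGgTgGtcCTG
Id4: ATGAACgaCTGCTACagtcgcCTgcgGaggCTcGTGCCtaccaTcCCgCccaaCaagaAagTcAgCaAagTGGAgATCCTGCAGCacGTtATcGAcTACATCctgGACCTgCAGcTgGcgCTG
In this window Id3 shared 71.5% of its bases with Id2, 71.5% with Id4 and 69.9% with Id1. Of the 41 bases in each consecutive stretch of the window, 23, 21 and 28 were shared by all 4 genes, from the first stretch to the last. Over whole transcripts, the longest identical run between any pair of Id genes was 11 to 19 bases, so the 4 genes are not near-identical copies of each other.

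Total counts ran from 16994473 to 21694383 per library, with no group difference beyond the spread (two-sided exact permutation p = 0.743). All values per library are counts scaled to a common library total with TMM factors (CPM). Fold changes are log2 of hypoxia over normoxia with their standard errors, fitted in edgeR by quasi-likelihood over 17047 genes with Benjamini-Hochberg adjustment, and a gene is called at an adjusted p under 0.05. In these bulk samples, fewer cells of a type and less RNA per cell cannot be told apart. Of the 24 markers of hypothalamic neurons and regions, 23 passed the filter on low counts, and Kiss1 had 0 counts in all libraries. Genes of neighbouring regions were uneven. Of the 12 thalamic markers tested, all had a negative log2 change (median −0.41), as had 4 of 5 of the midbrain-hindbrain border (median −1.17, Cnpy1 called lower). All 12 striatal markers had a positive one (median 0.37), as had 19 of 23 hypothalamic markers (median 0.26). By edgeR 0 of the thalamic, striatal and hypothalamic markers were called (2 lower, 1 higher and 1 higher at an unadjusted p under 0.05), and the summed levels of all 4 lists overlapped between the groups. Normoxia replicate 2 had the cortical transporter Slc17a7 at 383.5 CPM, against 7.92 to 80.3 CPM in the other 7 libraries. Normoxia replicates 3 and 4 had Gabra6, a receptor subunit of cerebellar granule cells, at 5.0 and 3.86 CPM, against at most 0.266 CPM in the other 6.

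After 2 hours at 7% oxygen, Id3 and Neurod1 were lower and the other 7 transcripts of the group were not called in either direction. All 9 members passed the filter on low counts. Of these, 2 were called lower, where 1.23% of all genes tested were, and 0 were called higher, where 0.915% were. In 0 members did all hypoxia libraries lie above all normoxia libraries, as 5.69% of genes did. No member had an unadjusted p under 0.05 in the higher direction, and DESeq2 and limma-voom also called 0 higher and 2 lower, Id3 and Neurod1. Scaling by library size alone moved the calls over all genes from 156 higher and 210 lower to 146 and 342, and left both counts of members as they were.

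**Figure D1:**
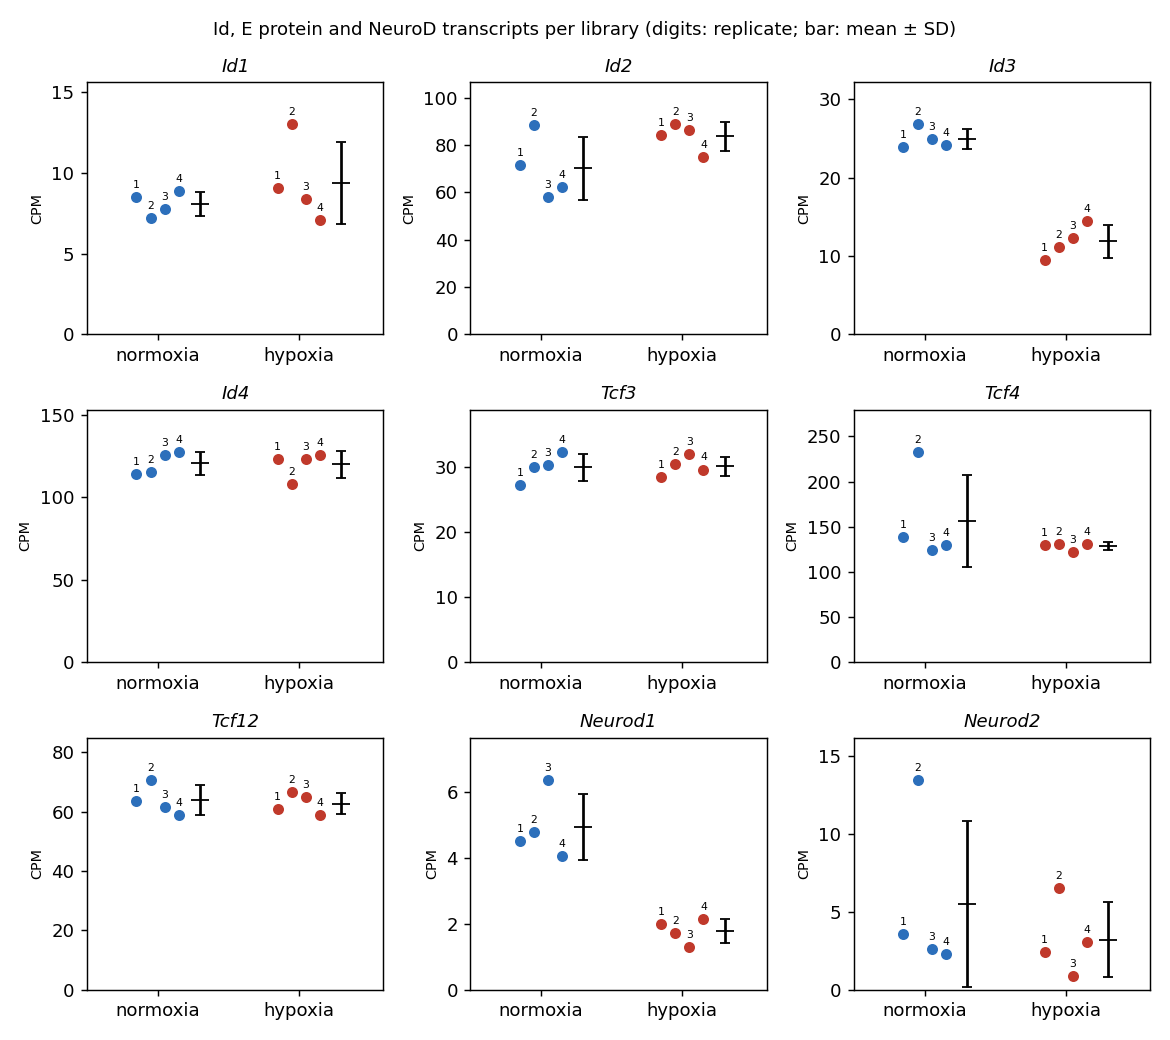
CPM (TMM-scaled) of the 9 transcripts in each library, on linear axes from 0. Points are libraries with their replicate number, and the bar is the mean ± SD of 4. Id3 and Neurod1 show no overlap between the groups, and normoxia replicate 2 lies far above the rest for Tcf4 (232.8 CPM) and Neurod2 (13.5 CPM).

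Among the inhibitors, Id3 (chromosome 4, 136143497 to 136145755, plus strand, GRCm38) was the member that changed. Hypoxia replicates 1 to 4 were at 9.48, 11.2, 12.3 and 14.5 CPM, and normoxia replicates 1 to 4 at 23.9, 26.8, 24.9 and 24.2 CPM. The highest hypoxia library lay well below the lowest normoxia library, a separation that 7.75% of all genes tested showed in this direction. Raw counts behind these values were 196 to 290 in hypoxia and 433 to 533 in normoxia. Mean levels were 11.9 ± 2.09 CPM under hypoxia and 24.9 ± 1.31 CPM under normoxia (SD, n = 4 each), so the hypoxia mean was 52.5% lower. The log2 fold change was −1.07 ± 0.12 (SE; edgeR quasi-likelihood, adjusted p = 0.00649). The spread was wider in hypoxia, with a coefficient of variation of 17.6% against 5.24% in normoxia.

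The Id3 decrease was called in each of the 8 fits that left out 1 library, with log2 values from −1.18 to −0.98. In the fits without hypoxia replicate 1, 2 or 3, only 2 genes of the whole table were called lower, Id3 and the Notch target Hes5. Without normoxia replicate 1, 3 or 4 there were 8, 4 and 3 lower genes, and both were again among them. There were 457 lower genes without hypoxia replicate 4 and 346 without normoxia replicate 2, with both among them. Without normoxia replicates 3 and 4 together, an alternative chosen after the data were seen, edgeR called 0 genes in the whole table, with 3661 at an unadjusted p under 0.05. Id3 then had a log2 of −1.09 and an unadjusted p of 0.000155 (adjusted p = 0.101).

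Summed markers of cell types known for Id3 overlapped between the groups. The summed level of 15 astrocyte markers was 5407.5 to 5521.9 CPM in hypoxia and 5157.6 to 5547.1 CPM in normoxia, with Gjb6 called higher and 0 called lower. For 15 endothelial markers it was 548.6 to 662.9 and 528.2 to 610.3 CPM, with Slc2a1 called higher and Slco1a4 lower. For 12 mural cell markers it was 312.0 to 396.3 and 318.1 to 391.4 CPM, with Kcnj8 called higher and 0 lower. At an unadjusted p under 0.05 (edgeR), 5 astrocyte markers were higher and 2 lower. For endothelial markers 2 were higher and 4 lower, and for mural markers 4 were higher and 1 lower. Negative log2 changes numbered 5 of 15 astrocyte, 11 of 15 endothelial and 6 of 12 mural markers. Meningeal fibroblast markers had a negative log2 change in 10 of 10 (median −0.28) with 0 called by edgeR (1 lower and 0 higher at an unadjusted p under 0.05), and sums of 115.6 to 215.4 CPM in hypoxia and 162.5 to 249.8 CPM in normoxia. The part of these cells, or of the other cell types, in the Id3 value was not tested. The called markers are named after their values were seen.

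Id2 (chromosome 12, 25093799 to 25097140, minus strand) had the reverse tendency without being called. Hypoxia libraries were at 84.4, 88.7, 86.5 and 74.9 CPM and normoxia libraries at 71.6, 88.3, 58.1 and 62.4 CPM. Only normoxia replicate 2 reached the hypoxia range. The log2 fold change was 0.25 ± 0.12 (SE; edgeR, adjusted p = 0.283), with a 95% interval from −0.02 to 0.52. Without normoxia replicate 2 it was 0.39 and was called (adjusted p = 0.0295), and without normoxia replicates 3 and 4 together it was 0.07.

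Id1 (chromosome 2, 152736251 to 152737410, plus strand), the inhibitor best known from endothelial cells, was at 9.09, 13.0, 8.41 and 7.09 CPM in hypoxia and 8.51, 7.18, 7.75 and 8.85 CPM in normoxia. Hypoxia replicate 2 stood above the rest and the groups overlapped. The log2 fold change was 0.22 ± 0.18 (SE; edgeR, adjusted p = 0.542; 95% interval −0.18 to 0.61). It was 0.02 without hypoxia replicate 2. That library also had the highest summed endothelial level, 662.9 CPM, and the highest mural level, 396.3 CPM, and their part in the Id1 value was not tested.

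Id4 (chromosome 13, 48261228 to 48266026, plus strand), an Id gene prominent in astrocytes, was level. Its means were 120.0 ± 8.01 CPM under hypoxia and 120.6 ± 7.06 CPM under normoxia (SD, n = 4 each), with a log2 fold change of −0.01 ± 0.06 (SE; edgeR, adjusted p = 0.962; 95% interval −0.15 to 0.13). The sign of this value changed under other settings. Id4 overlaps the noncoding genes A330033J07Rik and Gm49291 on the opposite strand, which were at 0.499 to 1.35 and 0.266 to 0.799 CPM, small beside Id4 itself.

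Per kilobase of exon, Id4 and Id2 made up most of the Id transcript level and Id3 was a minor share. In normoxia the levels were 31.3 ± 1.83 CPM per kb for Id4, 28.8 ± 5.49 for Id2, 13.9 ± 0.73 for Id3 and 6.96 ± 0.65 for Id1 (SD, n = 4). The spreads of Id4 and Id2 overlapped, while Id3 lay below both and above Id1. In hypoxia Id3, at 6.62 ± 1.17 CPM per kb, was no longer separated from Id1, at 8.1 ± 2.19. The ratio of Id3 to Id1 per kb was 1.82, 2.42, 2.08 and 1.77 in normoxia replicates 1 to 4 and 0.675, 0.557, 0.945 and 1.32 in hypoxia replicates 1 to 4. Per kb, Id3 was thus above Id1 in all 4 normoxia libraries and in 1 of the hypoxia libraries, replicate 4. This order in hypoxia depends on the union of annotated exons used as length, 1791 bases for Id3 and 1160 for Id1. In CPM, without division by length, Id3 was below Id1 only in hypoxia replicate 2 (11.2 and 13.0 CPM).

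The summed level of the 4 inhibitors did not follow Id3. It was 80.2 ± 2.04 CPM per kb under hypoxia and 81 ± 4.39 CPM per kb under normoxia (SD, n = 4 each). The share of Id3 in that sum was 6.64% to 10.4% in hypoxia and 16.7% to 18.0% in normoxia. The share of Id2 was 39.6% to 44.4% in hypoxia and 30.9% to 41.5% in normoxia, overlapping at normoxia replicate 2, and the shares of Id1 and Id4 overlapped. These shares are given as a description, since Id3 was chosen with its decrease known.

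**Figure D2:**
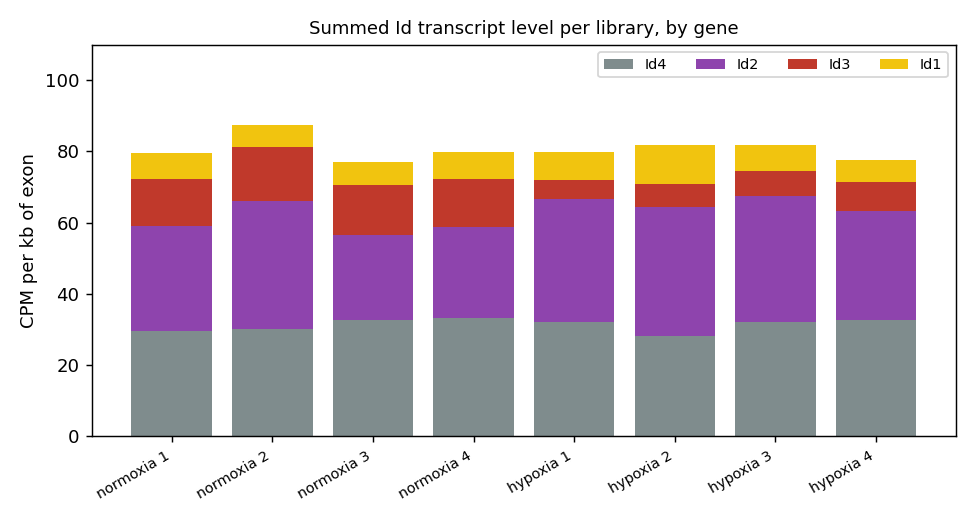
Stacked bars of Id transcript level per library, as CPM per kilobase of exon (linear axis), split by gene. The total stays between 77.1 and 87.3 in every library, while the Id3 segment is 16.7% to 18.0% of it in normoxia and 6.64% to 10.4% in hypoxia.

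The E proteins, the shared partners in bHLH pairs, were not called. Tcf3 (chromosome 10, 80409514 to 80433647, minus strand), which encodes E12 and E47, had means of 30.1 ± 1.46 CPM in the hypoxia group and 30 ± 2.12 CPM in the normoxia group (SD, n = 4 each). Its log2 fold change was 0.01 ± 0.07 (SE; edgeR, adjusted p = 0.959; 95% interval −0.15 to 0.16). Tcf12 (chromosome 9, 71842688 to 72111871, minus strand), which encodes HEB, was at 62.7 ± 3.54 and 63.8 ± 5.06 CPM (log2 −0.02 ± 0.07, SE; edgeR, adjusted p = 0.876; 95% interval −0.17 to 0.12). For both genes the libraries of the groups were intermixed, and the sign of the small difference changed under other settings.

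Tcf4 (chromosome 18, 69343356 to 69689079, plus strand), the E protein most abundant in the adult forebrain, differed through 1 library. Hypoxia libraries were at 129.7, 131.0, 121.8 and 130.6 CPM and normoxia libraries at 138.9, 232.8, 123.8 and 129.4 CPM. Normoxia replicate 2 was 232.8 CPM and the other 7 lay within 121.8 to 138.9 CPM. With all libraries the log2 fold change was −0.28 ± 0.18 (SE; edgeR, adjusted p = 0.422), and without normoxia replicate 2 it was −0.02. Per kilobase of exon in normoxia, Tcf3 was at 7.42 ± 0.525, Tcf4 at 5.71 ± 1.88 and Tcf12 at 4.11 ± 0.326 CPM per kb (SD, n = 4). These levels use the union of all annotated exons, which is 27382 bases for Tcf4 and 15529 for Tcf12 and spans many isoforms, so they understate both genes.

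**Figure D3:**
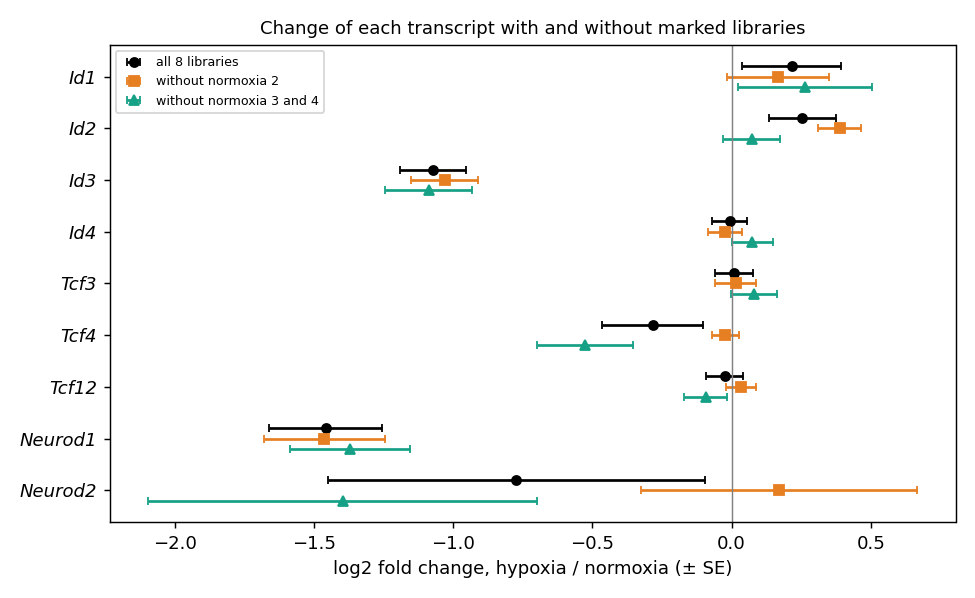
Log2 fold change (hypoxia over normoxia, ± SE) of each transcript with all 8 libraries, without normoxia replicate 2, and without normoxia replicates 3 and 4. Id3 stays between −1.09 and −1.03 and Neurod1 between −1.46 and −1.37, while Tcf4 and Neurod2 move to −0.02 and 0.17 without normoxia replicate 2.

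Neurod1 (chromosome 2, 79452521 to 79456751, minus strand), a proneural factor that pairs with E proteins, was lower in hypoxia at a low level of expression. Hypoxia replicates 1 to 4 were at 1.98, 1.71, 1.3 and 2.15 CPM and normoxia replicates 1 to 4 at 4.51, 4.79, 6.37 and 4.04 CPM. The groups did not overlap, as 7.75% of all genes tested showed in this direction. Raw counts were 27 to 43 in hypoxia and 89 to 111 in normoxia. The log2 fold change was −1.46 ± 0.20 (SE; edgeR, adjusted p = 0.0148), a hypoxia mean 63.8% lower. The call was lost without hypoxia replicate 1, 2 or 3 (adjusted p = 0.0612, 0.0684 and 0.0584) and kept without any other single library, with log2 values from −1.56 to −1.31 over all 8 such fits. Neurod1 overlaps Gm26755 on the opposite strand, which was not analysed here, and an exon of Cerkl on its own strand. Cerkl had means of 0.568 ± 0.207 CPM (hypoxia) and 0.861 ± 0.125 CPM (normoxia; SD, n = 4 each).

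Markers of cerebellar granule cells, in which Neurod1 is abundant, were also higher in part of the normoxia group. Gabra6 was at 0.047, 0.213, 5.0 and 3.86 CPM in normoxia replicates 1 to 4 and at 0 to 0.266 CPM in hypoxia. Cbln3, a granule cell cerebellin, was at 0.658, 1.65, 15.6 and 10.2 CPM in normoxia replicates 1 to 4 and at 0.87 to 1.65 CPM in hypoxia. Both markers were thus raised in normoxia replicates 3 and 4 and near the hypoxia range in replicates 1 and 2. Over the 12 cerebellar markers, of which 10 were tested and 0 called by edgeR (3 lower and 0 higher at an unadjusted p under 0.05), the summed level was 396.7 to 432.7 CPM in hypoxia and 407.8 to 573.4 CPM in normoxia. The highest sum was in normoxia replicate 2, where Pcp4l1 was at 296.5 and Eomes at 40.7 CPM, and most of the sum comes from genes also expressed outside the cerebellum, such as Calb1 and Pcp4l1. The Purkinje cell marker Pcp2 had 0 counts in all hypoxia libraries and in normoxia replicate 1, and was at 0.372, 4.77 and 0.59 CPM in normoxia replicates 2 to 4. In normoxia replicates 1 and 2, where Gabra6 was within the hypoxia range, Neurod1 was at 4.51 and 4.79 CPM, above all 4 hypoxia libraries. Those libraries stood apart in other regions. Replicate 1 had the highest thalamic sum, 859.7 CPM against 459.4 to 588.5 CPM in the other 7 libraries. It also had the highest sum of the midbrain-hindbrain border, at 21.3 CPM, with 3.83, 17.9 and 9.63 CPM in normoxia replicates 2 to 4 and 3.39 to 7.25 CPM in hypoxia. Replicate 2 was within the hypoxia range for both of these lists and had the highest cortical sum. The part of these regions in the Neurod1 value was not tested. Without replicates 3 and 4 the log2 fold change was −1.37 with an unadjusted p of 0.000283 (edgeR, adjusted p = 0.101, in a fit that called 0 genes).

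Neurod2 (chromosome 11, 98325415 to 98329648, minus strand), a factor of excitatory forebrain neurons, varied more than any other member. It was at 2.42, 6.56, 0.87 and 3.04 CPM in hypoxia and 3.57, 13.5, 2.64 and 2.32 CPM in normoxia. Normoxia replicate 2 was highest and hypoxia replicate 2 next, and the groups overlapped. The log2 fold change was −0.77 ± 0.68 (SE; edgeR, adjusted p = 0.572; 95% interval −2.29 to 0.75), and without normoxia replicate 2 it turned to 0.17.

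The library in which Neurod2 and Tcf4 were high also had the highest level of cortical and hippocampal markers. Slc17a7 was at 70.1, 383.5, 17.7 and 26 CPM in normoxia replicates 1 to 4 and at 34.5, 80.3, 7.92 and 46.2 CPM in hypoxia replicates 1 to 4. Its highest library of each group, replicate 2, was the highest for Neurod2 as well. The 12 markers summed to 192.3 to 601.0 CPM in normoxia, with 601.0 in replicate 2, and to 177.7 to 233.9 CPM in hypoxia. Of these, 11 were tested and edgeR called 0 (1 lower and 0 higher at an unadjusted p under 0.05). Their part in the Neurod2 and Tcf4 values was not tested beyond leaving that library out.

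**Figure D4:**
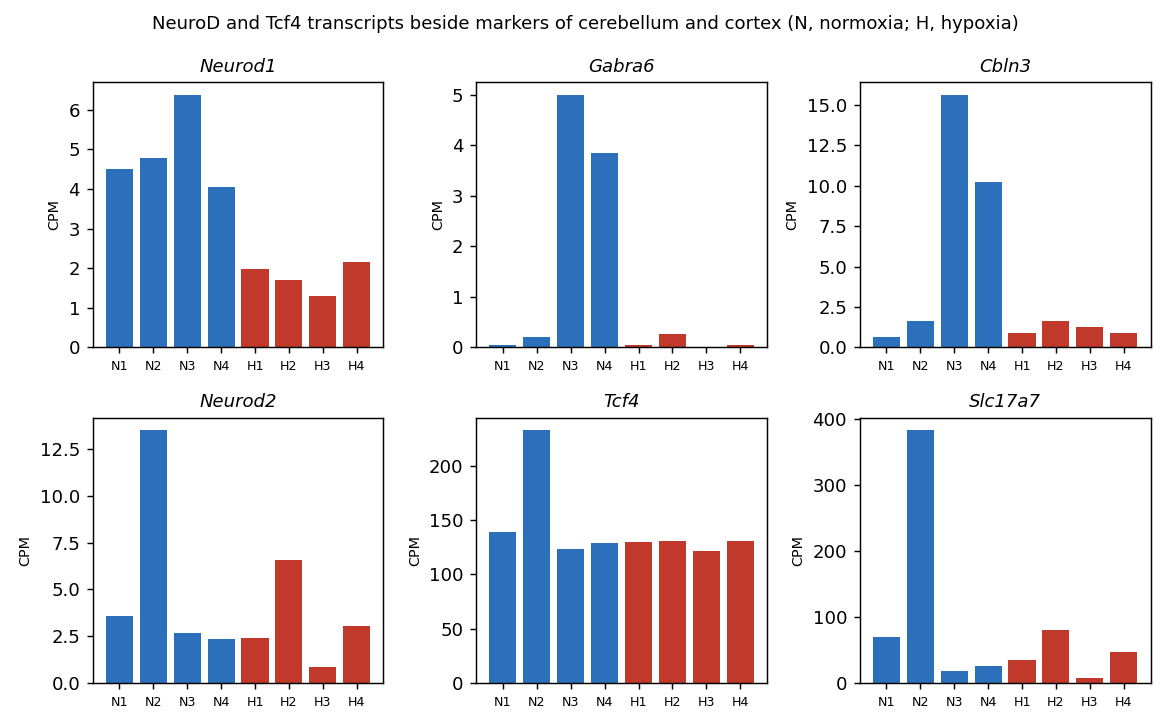
CPM per library (linear axes from 0) of Neurod1, Neurod2 and Tcf4 beside the cerebellar markers Gabra6 and Cbln3 and the cortical marker Slc17a7, for normoxia (N) and hypoxia (H) replicates. Gabra6 and Cbln3 are high in normoxia replicates 3 and 4 only, Neurod1 is high in all 4 normoxia libraries, and Neurod2, Tcf4 and Slc17a7 peak in normoxia replicate 2.

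Of 43 further tissue-restricted bHLH genes, possible partners of the E proteins, 17 passed the filter. Their median log2 change was −0.24 against −0.01 over all genes tested. Values were positive in 8 and negative in 9, against 8220 and 8827 of all genes tested. By edgeR 1 was called higher, Ascl2, where 0.915% of all genes tested were. Ascl2, a factor known from trophoblast and gut stem cells, had 15, 13, 12 and 10 counts in hypoxia and 2, 1, 0 and 0 in normoxia (edgeR, adjusted p = 0.0181), too few for a fold change. Of the 8 fits that left out 1 library, 5 lost the Ascl2 call, those without normoxia replicate 3 or 4 or one of hypoxia replicates 1, 2 and 3 (adjusted p = 0.0541 to 0.0806). It was also lost without normoxia replicates 3 and 4 together (0.101), and DESeq2 called 0 genes of this list higher and gave Ascl2 no adjusted p. The groups of Ascl2 did not overlap, with hypoxia above normoxia, as 5.69% of all genes tested showed.

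The Hes and Hey genes encode bHLH repressors, several of them Notch targets, and Id proteins are known to bind some of them. The list of 12 also holds Bhlhe40 and Bhlhe41, which are not Hes or Hey genes, and 8 of the list were tested. Of these, 1 was called higher, Bhlhe40, and 1 lower, Hes5, where 0.915% and 1.23% of all genes tested were. The median log2 change was 0.27, against −0.01 over all genes tested. At an unadjusted p under 0.05 (edgeR), 5 were higher and 1 lower. Among the 5 were Hes1, Hey1 and Heyl, named after their values were seen. Hes5 fell by 1.16 on the log2 scale (SE 0.13; edgeR, adjusted p = 0.0069), and the libraries ran from 107 to 154 counts in hypoxia and from 245 to 287 in normoxia. Hes5 overlaps Gm20421 on the opposite strand. Bhlhe40, a circadian and hypoxia-responsive repressor, rose from 68.8 to 111.0 CPM (log2 0.69; edgeR, adjusted p = 0.0284). With 1 library left out, that call remained only in the fits without hypoxia replicate 4 or normoxia replicate 2 (0.071 to 0.12 in the other 6). It overlaps 0610040F04Rik on the opposite strand.

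BMP signalling, the classical inducer of Id genes, had no member called by edgeR, while the tested genes of its ligand list all leaned one way. Of 14 genes listed as ligands, 8 were tested and all 8 had a negative log2 change, with a median of −0.39. Without the filter on low counts, 13 had a log2 value, 3 positive and 10 negative (median −0.32). Over all genes tested, 8827 of 17047 were negative. Bmp1, counted among the 8 for its name, is a metalloprotease and not a ligand of the family. By edgeR 0 genes of the list were called, and DESeq2 and limma-voom also called 0. At an unadjusted p under 0.05 (edgeR) 2 were lower, Bmp1 and Bmp2, and 0 higher. Bmp2 had the smallest p, with a log2 change of −0.42 ± 0.13 (SE; edgeR, adjusted p = 0.128) and means of 4.82 CPM under hypoxia and 6.46 CPM under normoxia. Without normoxia replicate 2 the list had a median of −0.31, 7 of 8 negative values and 1 called lower, Bmp2. The meningeal fibroblast markers leaned the same way, as given above. Their summed level was highest in hypoxia replicate 2 and normoxia replicate 4 (215.4 and 249.8 CPM). So within each group were Bmp4 (4.53 and 7.67 CPM), Bmp6 (15.4 and 18.4 CPM) and Bmp7 (21 and 27.7 CPM), named after their values were seen. The other tested genes of the list, Bmp2 among them, were not highest in both of these libraries. The part of these cells in the ligand values was not tested.

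The receptors and SMAD factors that carry the BMP signal were level, with a median log2 change of −0.0007 over 14 tested. By edgeR 0 were called, with 1 higher and 1 lower at an unadjusted p under 0.05. Smad5, a signal-carrying SMAD, had −0.22 ± 0.06 (SE; edgeR, adjusted p = 0.115). Of 17 tested inhibitors of the pathway 0 were called, with 2 higher and 1 lower at an unadjusted p under 0.05 and a median of −0.03. Skil, a repressor of SMAD complexes, had the smallest p, at 0.28 ± 0.06 (SE; edgeR, adjusted p = 0.0538). It was called by DESeq2 (adjusted p = 0.00572), without normoxia replicate 2 (edgeR, 0.0111), and with robust estimation (0.0486) or upper-quartile scaling (0.0446). DESeq2 called 2 inhibitors, the other being Smad6, an inhibitory SMAD that BMP signalling is known to induce, with an edgeR log2 change of 0.82 (adjusted p = 0.0984). Smad6 is named after its value was seen.

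**Figure D5:**
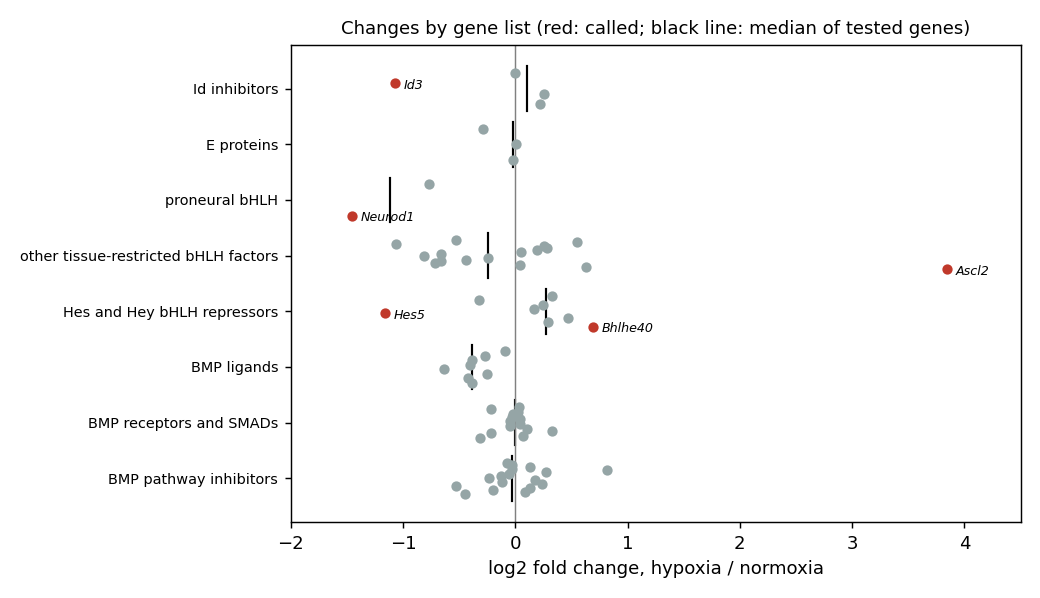
Log2 fold change (hypoxia over normoxia, linear axis) of tested genes in the Id, E protein, NeuroD (proneural bHLH), other bHLH, Hes and Hey, and BMP lists. Red points are called genes and black lines medians of the tested genes; the place of Ascl2, with 0 to 2 counts per normoxia library, depends on the fit's prior count and is no measured fold. All 8 tested genes of the BMP ligand list, Bmp1 among them, lie below 0 with none called. The called bHLH genes lie on both sides.

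Genes whose levels ran most like those of Id3 and Neurod1 were picked by Pearson correlation of log2 CPM over the 8 libraries, among 11742 candidates for Id3 with a mean of at least 5 CPM. For Id3 these were Mum1l1, Srfbp1, Clk4, Plgrkt and Gorab, with r from 0.9876 to 0.9912. Clk4, a kinase of splicing factors, showed the largest change of the 5, from 74.3, 80.9, 79.1 and 75.2 CPM in normoxia to 45.7, 47.2, 49.4 and 60.0 CPM in hypoxia. Within the groups, as deviations from the group means, the r of these 5 genes with Id3 was 0.8619 to 0.9394. For Neurod1 the 5 were Acaa1a, Noc3l, Zgpat, Hs1bp3 and Hyls1, with r from 0.9807 to 0.9863 and 0.8207 to 0.9795 within groups. Each r is the top of a long candidate list whose genes share the 8 libraries and the difference between their groups, and is given as a description.

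Promoter windows were available from RefSeq (GRCm38.p6) for 7 of the 9 members, 9 windows in all, each from 250 bases before to 50 bases after a transcript start. Both strands were searched for the E-box CANNTG, the hypoxia response element core as ACGTG, the GC-rich SMAD site GGCGCC and the glucocorticoid receptor palindrome. No other form of the hypoxia core was searched. An E-box that reads CACGTG would also hold the hypoxia core. The E-box was in 7 of the 9 windows, those of Id2, Tcf3, Tcf12 (3 windows), Neurod1 and Neurod2, and in 72.3% of all 32851 windows of this length. The hypoxia core in the form ACGTG was in 1 (Neurod2) against 19.6% of all windows. The SMAD site was in 2 (Id2 and Id4) against 11.9%, and the glucocorticoid palindrome in 0 against 0.00913%. The Id3 window held none of the 4, and it lies inside an annotated first exon and is not printed.
The leading parts of the Neurod1 and Id2 windows, up to the first base of any annotated exon, are shown with motif matches in capitals, since both hold an E-box, the kind of site that NeuroD and E proteins bind. They are at chr2:79456786-79456886 and chr12:25096254-25096342, minus strand. The Neurod1 stretch lies before the start of Neurod1 and in an intron of Gm26755 on the opposite strand. The Id2 stretch lies before the start of the transcript Id2-201 but inside an intron of Id2-202, which starts further upstream.
Neurod1: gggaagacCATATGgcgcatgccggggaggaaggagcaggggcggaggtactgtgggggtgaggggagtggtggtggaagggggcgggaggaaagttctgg
Id2: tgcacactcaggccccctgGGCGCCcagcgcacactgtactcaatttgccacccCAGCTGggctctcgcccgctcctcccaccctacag
The Neurod1 E-box starts at position −242 from the transcript start, counting the base just before it as −1, and the Id2 E-box and SMAD site start at −196 and −231. These are letter matches only.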

How the data were processed

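The 8 hypothalamus libraries were made from total RNA with a TruSeq Stranded mRNA kit, per the labels. The authors deposited raw read counts per Ensembl gene, unpooled. Per the submitters' processing notes, mm10, featureCounts, SAMtools, HISAT, HISAT2 2.0.4, DESeq2 and Trimmomatic were used. The annotation release, the strand setting and the handling of multi-mapped reads are not stated. Symbols (55141 of 55487 rows), positions and exon lengths came from GENCODE M21. Of the list genes, Hjv had no row under that symbol.

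Counts were tested with edgeR 4.0.16 (R 4.3.3): filterByExpr (minimum count 10, total 15), TMM, group as the only term, quasi-likelihood F test, Benjamini-Hochberg over 17047 genes. A standard error is the log2 change over the root of F, with a t interval. Alternatives, with DESeq2 1.42.0 and limma 3.58.1 among them, are given at the end. Members and lists were chosen with earlier results of these data known. Named genes are all members, up to 4 called genes per pathway list or else the smallest p, and the 5 most similar patterns. The result of 1 gene of the bHLH list, its call included, is not reported here. Libraries of a group had correlations of 0.976 to 0.992 and chi-square values of 4.4 to 35.0 per gene, so none repeats another. The design text calls them biological replicates.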

Additional observations from a re-analysis of the deposited data

Results flagged for a closer look

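Within the 4 libraries of a group, 1 library stood apart from the rest in 6 cases, by a gap to its nearest neighbour above Dixon's critical share of the group's range. Chance flags about 1 in 20 groups, and 52 groups (26 genes) were looked at. Tcf4 in normoxia replicate 2 was at 232.8 CPM against 123.8 to 138.9 in the rest of its group, and Neurod2 in the same library at 13.5 CPM against 2.32 to 3.57. In hypoxia, Id4 was lowest in replicate 2, at 108.1 CPM against 123.0 to 125.5, and Tcf4 was lowest in replicate 3, at 121.8 CPM against 129.7 to 131.0. Hypoxia replicate 4 was lowest for Bhlhe40, at 82.4 CPM against 117.7 to 125.0, and highest for Plgrkt, at 12.9 CPM against 11.3 to 11.6.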

How the results depend on the processing

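Id3 was lower and called under all 19 alternatives set at the start, with a highest adjusted p of 0.0447, and Neurod1 was lower in all 19 and called in 15. Members called lower numbered 1 to 2, and members called higher 0 to 1, with 1 library left out. Without normoxia replicate 2 and hypoxia replicate 4 together, 1 member, Id2, was called higher (log2 0.43). Without normoxia replicates 3 and 4 together, added after seeing the data, 0 members were called lower. Calls over all genes were 366 with edgeR, 1017 with DESeq2 and 26 to 693 with 1 library left out. They were 1195 without normoxia replicate 2 and hypoxia replicate 4. They were 0 (3661 at an unadjusted p under 0.05) without normoxia replicates 3 and 4. Each of these latter fits left out 2 libraries. The cause of the shifts was not tested. A replicate block, with the replicate number as a term, gave 21 calls and 1 member called lower. Id3 was the only gene of the table called lower under it, and the calls of Neurod1 (adjusted p = 0.104), Ascl2 (0.0917), Hes5 (0.0629) and Bhlhe40 (0.0726) were lost. Deviations of same-numbered libraries correlated at −0.105 to 0.043, the best partner never had the same number, and nothing in the labels pairs them. Near-zero members changed sign: Id4 ran from −0.029 to 0.0425 with 1 library left out and was 0.0052 with upper-quartile scaling and 0.075 without normoxia replicates 3 and 4. Tcf3 ran from −0.0314 to 0.054 and was −0.018 by library size alone. Tcf12 ran from −0.0535 to 0.0343 and was 0.059 without normoxia replicate 2 and hypoxia replicate 4. Neurod2 ran from −1.37 to 0.17, and was 0.19 without those 2 libraries. Neurod1 and Neurod2 rest on 18 to 253 counts per library, which limits their precision.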
